A study of Mus musculus with 2 samples.

Results

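The 14-3-3 family, a group of small adaptor proteins, was followed in mouse peritoneal macrophages deficient or sufficient in ECM1, a glycoprotein that cells secrete into the extracellular matrix. Members were taken by symbol from the deposited expression table. The 6 genes were Ywhab, Ywhae, Ywhag, Ywhah, Ywhaq and Ywhaz, out of 10402 gene symbols with values. They were chosen with their values known, because Ywhah was near 0 in one library and abundant in the other while its close relatives were not, so the levels below are a description and carry no test. The relative Sfn, which encodes the sigma form, had no value in the table and is not analysed here.

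Cells came from the peritoneal cavity of ECM1-deficient and ECM1-sufficient mice, 3 days after elicitation with an agent that the labels call ThG, and were not activated further. The labels name the ECM1-deficient sample KO and the ECM1-sufficient sample WT, both with the suffix lps-. Each genotype had 1 library of oligo(dT)-selected, strand-specific RNA, and the labels used here give neither the allele, the strain, the age nor the number of animals. There were no replicates, so every value is that of a single library and no difference can be set against a spread between samples.

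14-3-3 proteins form dimers that dock onto serine- or threonine-phosphorylated partners. Docking can hide a nuclear import signal, hold an enzyme in one shape, or keep a death-promoting protein away from mitochondria. Through such partners the family acts in growth factor and RAF signalling, the cell cycle, survival, autophagy and innate sensing. Forms pair with themselves and with one another, and most cells make several of them.

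FPKM, mapped fragments scaled to transcript length and to the library's total, is a level per length and allows genes to be compared within a library. The FPKM of all listed genes summed to 187612 in the ECM1-deficient library and 137135 in the ECM1-sufficient library, and the number of reads is unknown. Most genes stood higher in the ECM1-deficient library, with a median ratio of 1.73 over the 7329 genes that reached 1 FPKM in both. Ecm1 itself was at 1.02 FPKM in the ECM1-deficient library and 5.63 FPKM in the ECM1-sufficient library, the direction of the labels. Of 9 macrophage markers, all had values, and 8 were higher in the ECM1-deficient library, by ratios of 1.39 to 4.72. The exception was the lysozyme gene Lyz2, at 5.44 FPKM in the ECM1-deficient library and 2774 FPKM in the ECM1-sufficient library. Of all genes that reached 1 FPKM in either library, 90.5% were higher in the ECM1-deficient one, so nothing about macrophage content is read from the 8. Among markers of other cells, 2 of 4 B cell, 0 of 4 T and NK cell, 2 of 4 neutrophil, 3 of 4 eosinophil and mast cell, 4 of 5 mesothelial and fibroblast and 2 of 3 erythroid genes had values. The mesothelial and fibroblast genes summed to 48.5 FPKM in the ECM1-deficient library and 26.4 FPKM in the ECM1-sufficient library. The largest sum of the other 5 lists was 7.71 FPKM, for neutrophils in the ECM1-deficient library, and the mast cell gene Tpsb2, at 1.31 FPKM in the ECM1-deficient library, had a listed value of 0 in the ECM1-sufficient one. In whole-sample RNA, fewer cells of a type and less RNA per cell cannot be told apart, and the part of other cells in the 14-3-3 levels was not tested.

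The coding sequences show how far reads of the 6 genes could be told from one another. Taken from the GENCODE M21 transcript with the longest coding sequence of each gene, they were 735 to 765 bases long and 61.3% to 79.0% identical in pairs, with a median of 67.9%. Ywhah and Ywhag were the closest pair, at 79.0%, and both have 2 exons, whereas Ywhab, Ywhae and Ywhaq have 6 and Ywhaz has 7. Ywhae was the most distant, at 61.3% to 63.4% from the other 5. The longest run of identical bases between any 2 members was 30 bases, between Ywhah and Ywhag, and no stretch of 50 bases was common to 2 members. The most alike 60 bases of the alignment are shown for all 6 genes, to show that even there every gene departs from the common letters. Capitals mark bases that differ from the commonest base at that position among the 6. Where bases tied as commonest, the one met first in alphabetical order of the genes was taken, so a capital can mark a tied base. Of the 60 positions, 38 were the same in all.
Ywhah: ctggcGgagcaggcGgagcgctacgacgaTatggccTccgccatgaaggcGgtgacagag
Ywhag: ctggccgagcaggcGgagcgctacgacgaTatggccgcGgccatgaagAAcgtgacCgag
Ywhab: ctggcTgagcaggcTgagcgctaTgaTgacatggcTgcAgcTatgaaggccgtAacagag
Ywhaz: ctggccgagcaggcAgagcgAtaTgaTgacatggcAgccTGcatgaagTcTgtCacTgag
Ywhaq: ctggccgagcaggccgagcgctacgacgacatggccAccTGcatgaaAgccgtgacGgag
Ywhae: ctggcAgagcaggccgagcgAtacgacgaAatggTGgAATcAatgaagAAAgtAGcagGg

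The least alike 60 bases are shown for Ywhah, its closest relative Ywhag and the distant Ywhae, with capitals of the same meaning. Only 11 of these 60 positions were the same in all 6 genes.
Ywhah: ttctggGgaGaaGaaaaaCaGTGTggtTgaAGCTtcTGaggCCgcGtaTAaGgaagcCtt
Ywhag: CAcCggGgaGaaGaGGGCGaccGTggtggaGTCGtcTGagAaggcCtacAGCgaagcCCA
Ywhae: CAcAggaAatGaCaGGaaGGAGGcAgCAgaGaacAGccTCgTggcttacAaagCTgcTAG

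Copies outside the family are another matter. Ywhah has an annotated processed pseudogene, Gm12428, an intronless copy of its messenger RNA, on chromosome 3 from 98821038 to 98821764 (GRCm38). Gm12428 matched the Ywhah coding sequence at 710 of 717 aligned bases, 99.0%. It lies 3.08 Mb from the end of Ecm1, on the same chromosome, while Ywhah itself is on chromosome 5. The longest stretch that both share letter for letter is 193 bases, from base 364 to base 556 of the Ywhah coding sequence, and is shown because a read lying wholly inside it would match both loci.
Ywhah: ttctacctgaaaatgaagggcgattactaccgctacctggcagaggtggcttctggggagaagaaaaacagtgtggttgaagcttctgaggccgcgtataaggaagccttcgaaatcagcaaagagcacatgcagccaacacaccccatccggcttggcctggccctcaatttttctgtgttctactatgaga

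Of all 50-base stretches in the Ywhah transcript, 18.6% also occurred in Gm12428, and within the coding part 45.9% did. With 75 bases the coding share was 30.4%, and with 100 bases 17.5%. The remaining stretches, the untranslated ends nearly all included, were found in no other annotated transcript. The coding part of Ywhaq was shared at 95.3% of its 50-base stretches, mostly with the pseudogenes Gm2423 and Ywhaq-ps3 and with Cdk5rap2, whose annotated span contains Ywhaq-ps3. The coding part of Ywhaz was shared at 93.4%, mostly with the pseudogene Gm4202. Ywhab and Ywhae shared no 50-base stretch with another gene, and Ywhag shared 16, all outside its coding part. None of these pseudogenes had a value in the deposited table, so how reads were divided between a gene and its copy is unknown, and the levels of Ywhah, Ywhaq and Ywhaz are uncertain to that extent. The part of shared sequence in the differences below was not tested.

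**Figure D1:**
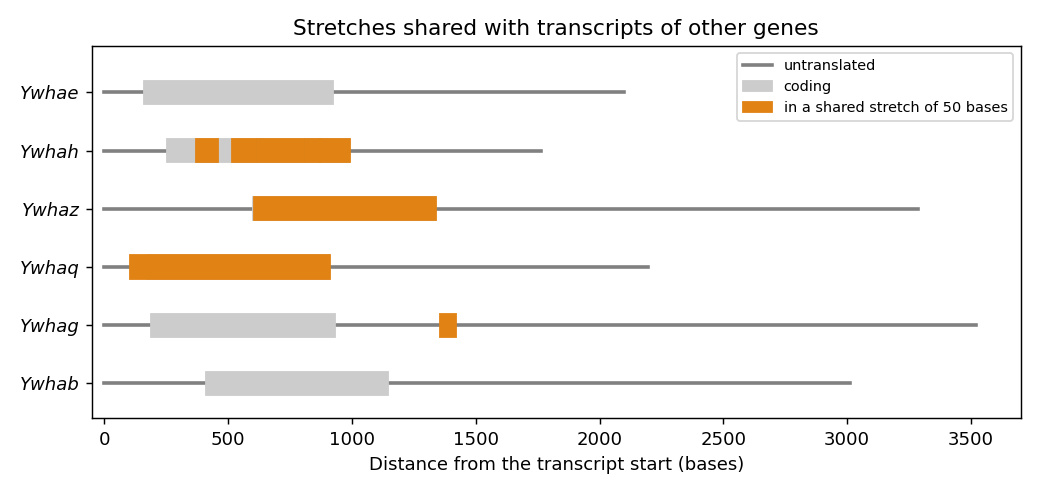
The x axis is the distance in bases from the start of the transcript with the longest coding sequence of each 14-3-3 gene; lines are untranslated, grey boxes coding, and orange boxes are bases inside a 50-base stretch that also occurs in a transcript of another gene. Ywhaq and Ywhaz are covered over nearly all of their coding part and Ywhah over 564 bases, whereas Ywhae and Ywhab have none.

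Ywhah stood apart from the rest of the family. It encodes the eta form, best known from neurons and, in human patients, as a serum marker of rheumatoid arthritis. It lies on chromosome 5 from 33018816 to 33027966 on the plus strand, and no other gene of the table overlaps it. Its level was 103 FPKM in the ECM1-deficient library and 0.115 FPKM in the ECM1-sufficient library, a ratio of 893. It ranked 282 of the 9032 genes kept for comparison, those that reached 1 FPKM in either library, in the ECM1-deficient library and 8961 in the ECM1-sufficient library. On the log2(FPKM + 1) scale, which understates differences of weakly expressed genes, the difference was 6.54, the third highest of all. After both libraries were brought to the same median gene it was 6.11. Ywhah was kept through the ECM1-deficient library alone. The family was chosen because Ywhah was near 0 in one library and abundant in the other, so its large difference was built in by that choice.

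**Figure D2:**
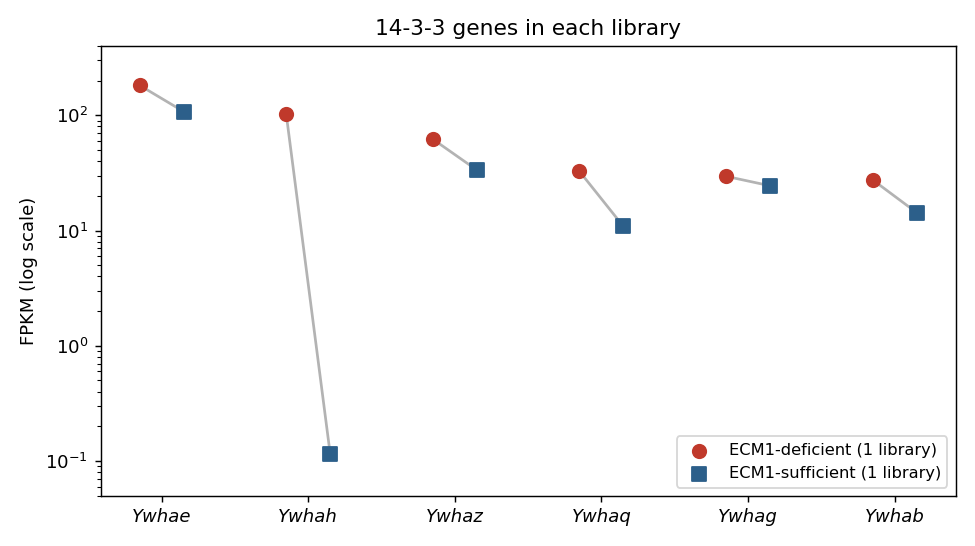
The y axis is FPKM on a log scale, with ECM1-deficient as circles and ECM1-sufficient as squares, 1 library each, joined by a line for each 14-3-3 gene. Ywhah spans 103 to 0.115 FPKM, and the other 5 genes stay between 182 and 10.9 FPKM.

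The other 5 genes were at 10.9 FPKM or more in both libraries and all stood higher in the ECM1-deficient one. The deposited coordinates place Ywhae on chromosome 11 from 75732869 to 75765845 (plus strand) and Ywhab on chromosome 2 from 163994960 to 164018588 (plus strand). Ywhaz is on chromosome 15 from 36770770 to 36794547 (minus strand), Ywhaq on chromosome 12 from 21390071 to 21417637 (minus strand) and Ywhag on chromosome 5 from 135908409 to 135934616 (minus strand). Ywhae, the epsilon form, which binds cell cycle phosphatases among many partners, was the most abundant in both libraries. Its level was 182 FPKM in the ECM1-deficient library and 108 FPKM in the ECM1-sufficient library, ranks 137 and 190. Ywhaz, the zeta form, a survival-promoting adaptor present in nearly all tissues, was at 62.1 FPKM in the ECM1-deficient library and 33.5 FPKM in the ECM1-sufficient library. Ywhab, the beta form, a partner of RAF kinases, was at 27.5 FPKM in the ECM1-deficient library and 14.3 FPKM in the ECM1-sufficient library. The ratios of these 3 genes, 1.69, 1.85 and 1.92, lay close to the 1.73 of the median gene.

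Ywhaq and Ywhag lay to either side of that ratio. Ywhaq, the theta form, first known from T cells, was at 32.7 FPKM in the ECM1-deficient library and 10.9 FPKM in the ECM1-sufficient library, a ratio of 3.01. Ywhag, the gamma form, was at 29.6 FPKM in the ECM1-deficient library and 24.5 FPKM in the ECM1-sufficient library, a ratio of 1.21. The closest relative of Ywhah in sequence and exon number was therefore the member with the smallest difference. On the log2 scale relative to the median gene, Ywhaq was at 0.76, Ywhab at 0.15, Ywhaz at 0.10, Ywhae at -0.03 and Ywhag at -0.50. Ywhae and Ywhag thus changed sign with that scaling, and Ywhag also at -0.17 when FPKM were rescaled to equal sums.

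The order of the levels differed between the libraries. From high to low it was Ywhae, Ywhah, Ywhaz, Ywhaq, Ywhag and Ywhab in the ECM1-deficient library. It was Ywhae, Ywhaz, Ywhag, Ywhab, Ywhaq and Ywhah in the ECM1-sufficient library. Ywhae stood 2.93 times above Ywhaz in the ECM1-deficient library and 3.22 times in the ECM1-sufficient library. Ywhaq, Ywhag and Ywhab lay within a ratio of 1.19 of each other in the ECM1-deficient library, and within 2.25 in the ECM1-sufficient library. With 1 library each, it cannot be said which neighbours in these orders differ beyond their spread.

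Counted at 2-fold in FPKM + 1, 2 of the 6 members were higher in the ECM1-deficient library, Ywhah and Ywhaq, and 0 were lower. Over all 9032 genes, 14.8% were higher and 2.17% lower by that rule, and 90.5% were higher by any amount. Because the members were chosen on these same values, nothing is read from the 2. The members' median difference was 0.88, or 0.87 without Ywhah, beside 0.61 over all genes. Relative to the median gene 1 member, Ywhah, was higher and 0 were lower, where the shares over all genes were 2.45% and 4.77%. In the authors' deposited table every p-value and q-value was 1, for all genes as for the members, so these say nothing about the members.

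**Figure D3:**
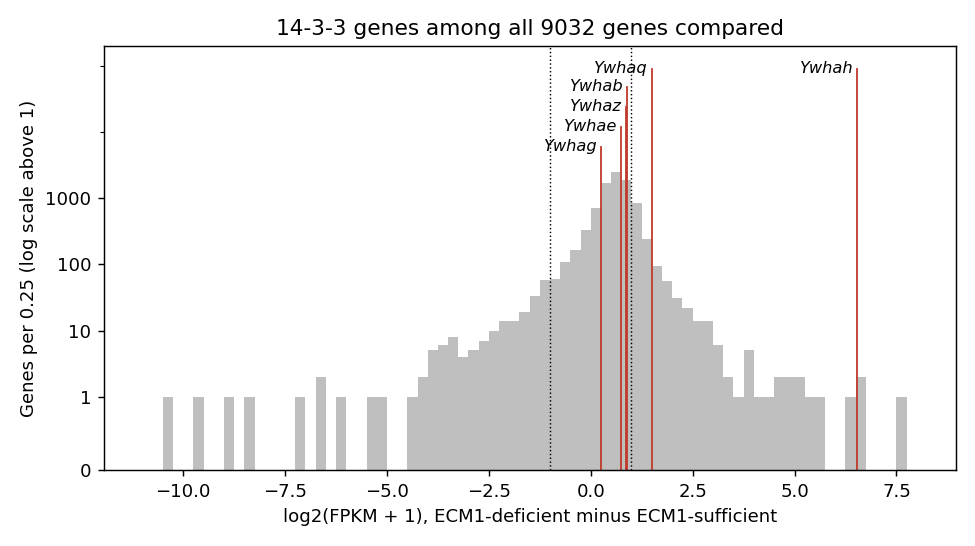
The x axis is the difference in log2(FPKM + 1), ECM1-deficient minus ECM1-sufficient, the y axis the number of genes per bin of 0.25 on a log scale above 1, and red lines mark the 14-3-3 genes; dotted lines stand at 2-fold. Ywhah lies at 6.54, outside the main body of genes, and the other 5 lie between 0.26 and 1.51.

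Summed over the family, FPKM came to 437 in the ECM1-deficient library and 191 in the ECM1-sufficient library, a ratio of 2.29. Ywhah made up 23.6% of the sum in the ECM1-deficient library and 0.0604% in the ECM1-sufficient library. Of the 246 FPKM by which the sums differed, Ywhah accounted for 41.9%. Without Ywhah the sums were 334 in the ECM1-deficient library and 191 in the ECM1-sufficient library, and their ratio of 1.75 was close to that of the median gene. Among the other 5 genes alone, Ywhae held 54.5% in the ECM1-deficient library and 56.5% in the ECM1-sufficient library. Ywhaq held 9.78% in the ECM1-deficient library and 5.68% in the ECM1-sufficient library. The share of Ywhag was 8.85% in the ECM1-deficient library and 12.8% in the ECM1-sufficient library.

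**Figure D4:**
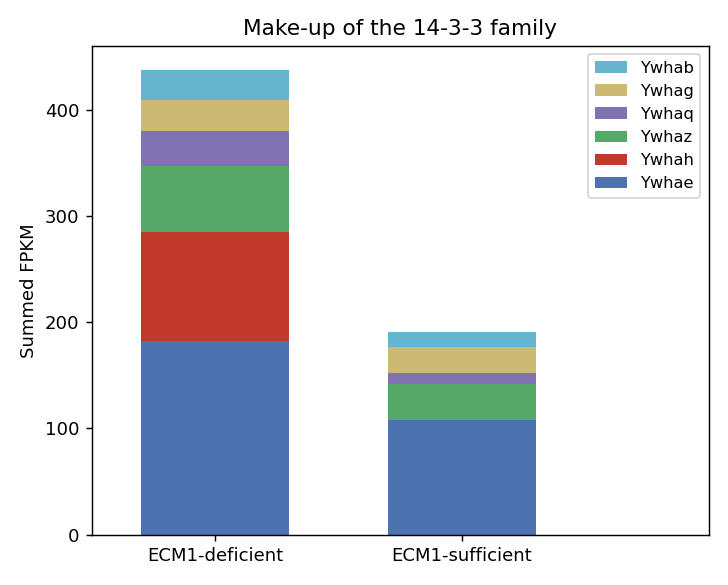
Bars give the FPKM of the 6 genes stacked in each library, ECM1-deficient on the left and ECM1-sufficient on the right. The totals are 437 and 191, and the segment of Ywhah, 103 FPKM in the ECM1-deficient bar, is too thin to see in the ECM1-sufficient bar.

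Few genes shared the pattern of Ywhah. Distance was taken in log2(FPKM + 1) over the 2 libraries, leaving out predicted genes and clone names. The 5 nearest genes left were the histone genes Hist1h4b, Hist1h2ab, Hist1h2ap and Hist1h1e and the mitochondrial gene mt-Cytb. All had 1 exon and a listed value of 0 in the ECM1-sufficient library. Hist1h4b, the nearest of these at a distance of 0.31, was at 85.8 FPKM in the ECM1-deficient library. The predicted gene Gm10094, left out by that rule, lay closer to Ywhah. It was at 94.9 FPKM in the ECM1-deficient library and 0 FPKM in the ECM1-sufficient library. Genes at 50 FPKM or more in one library and under 1 FPKM in the other, limits chosen after the values were seen, numbered 10. Of these 4 were higher in the ECM1-deficient library and 6 in the ECM1-sufficient library, and 9 had 1 exon. Ywhah was the remaining one. Among the 6 higher in the ECM1-sufficient library were mt-Co1, a mitochondrial gene like mt-Cytb, and Hist1h4d, a histone gene like Hist1h4b. Both had a listed value of 0 in the ECM1-deficient library. In the ECM1-sufficient library mt-Co1 was at 1299 FPKM and Hist1h4d at 101 FPKM. Histone and mitochondrial genes thus had listed values of 0 in either library. Higher in the ECM1-deficient library by 4 or more on the log2 scale were 12 of the 228 genes with 1 exon, 2 of the 372 with 2 exons and 0 of the 8419 with 3 or more. Lower by as much were 11, 1 and 1 genes of these classes, the last being Lyz2. The 2 higher genes with 2 exons were Ywhah and Sertad3, at 15.9 FPKM in the ECM1-deficient library and 0.0360 FPKM in the ECM1-sufficient library. The limit of 4 on this scale was not among the planned calls, and Sertad3, at 4.03, was just past it. Genes with more exons lay just below it, so the 0 depends on where the limit stands. Gm20390, with 8 exons, was at 3.93 and Lamtor1, with 5 exons, at 3.88. The part of exon number in these differences was not tested.

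For the other 5 members the median level was taken in each library separately. It was that of Ywhaq, 32.7 FPKM, in the ECM1-deficient library and that of Ywhag, 24.5 FPKM, in the ECM1-sufficient library. This pair of levels is therefore not the pattern of any 1 member. The 5 genes nearest to it were Pon2, Tomm5, Fn1, Cdk4 and Gyg. Pon2, which encodes a paraoxonase, was at 32.7 FPKM in the ECM1-deficient library and 23.4 FPKM in the ECM1-sufficient library. With only 2 libraries this likeness says no more than that the levels were alike.

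Genes next to Ywhah did not share its difference. The nearest measured gene before it on chromosome 5, Depdc5, a regulator of mTORC1, was at 1.66 FPKM in the ECM1-deficient library and 0.851 FPKM in the ECM1-sufficient library. The nearest after it, the corepressor gene Ctbp1, was at 12.5 FPKM in the ECM1-deficient library and 6.10 FPKM in the ECM1-sufficient library. All 12 nearest neighbours of the 6 members were higher in the ECM1-deficient library, by ratios of 1.15 to 10.3 with a median of 1.82. This was near the background, as 90.5% of all genes compared were higher and the median gene had a ratio of 1.73. The sets were not the same. Ada, Ssc4d and 9030624G23Rik were under 1 FPKM in both libraries and so not among the genes compared. The 1.73 is over genes that reached 1 FPKM in both libraries, which Depdc5 and Zfp706 did not either. The largest ratio of the 12 was that of Zfp706, beside Ywhaz, at 6.52 FPKM in the ECM1-deficient library and 0.636 FPKM in the ECM1-sufficient library.

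The promoters of 4 members were in the RefSeq table (GRCm38.p6), those of Ywhae, Ywhag, Ywhah and Ywhaq. The 250 bases before the start held 73.2% G and C for Ywhae, 68.8% for Ywhah, 65.2% for Ywhaq and 58.4% for Ywhag, against a median of 52.4% over 32851 promoters. CG pairs numbered 29 for Ywhae, 29 for Ywhah, 24 for Ywhaq and 16 for Ywhag, against a median of 6. The promoter of Ywhah, the member that differed most, and that of Ywhag, the one that differed least, are shown 5′ to 3′, chr5:33018566-33018815 on the plus strand and chr5:135934642-135934891 on the minus strand, with capitals marking any match, on either strand, to the GC box (letters GGGCGG), the CCAAT box or the TATA motif (letters TATAAA). The GC box was in 32.7%, the CCAAT box in 33.8% and the TATA motif in 12.4% of all promoters.
Ywhah: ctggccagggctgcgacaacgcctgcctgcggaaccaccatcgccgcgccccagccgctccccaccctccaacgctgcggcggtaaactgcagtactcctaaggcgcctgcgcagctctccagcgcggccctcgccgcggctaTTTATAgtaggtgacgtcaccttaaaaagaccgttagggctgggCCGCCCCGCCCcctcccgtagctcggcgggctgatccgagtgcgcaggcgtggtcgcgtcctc
Ywhag: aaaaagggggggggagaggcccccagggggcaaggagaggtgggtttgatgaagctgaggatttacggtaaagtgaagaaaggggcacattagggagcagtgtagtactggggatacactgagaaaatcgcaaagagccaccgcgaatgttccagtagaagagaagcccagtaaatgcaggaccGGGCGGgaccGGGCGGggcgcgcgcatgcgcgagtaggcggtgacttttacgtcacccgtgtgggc

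Ywhah had 2 GC box matches, overlapping and both on the opposite strand, and 1 TATA match, also on the opposite strand. Ywhag had 2 GC box matches. A match of letters is a description of the window and not a binding site.

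In the authors' deposited gene ontology table, 5 of the 6 members were named and Ywhag was not. The genes named there with a value in the expression table all had a ratio in FPKM + 1 of at least 1.5 in favour of the ECM1-deficient library. That ratio was reached by 4943 genes, beside a list of 4944 genes given by the authors. Ywhag, at 0.26 on the log2 scale, was below it. Of 2592 terms, 262 named at least one member, 156 named Ywhah and 67 named Ywhah and no other member. Terms naming all 5 numbered 22, and the smallest of them at a false discovery rate below 0.05 was intracellular protein transport, where the authors' deposited table gives 346 genes of 836 and a fold enrichment of 1.95. By the same limit, the smallest term naming Ywhah alone was intracellular steroid hormone receptor signalling, at 39 genes of 99. As the list was cut from these same differences, the terms describe annotation and add no evidence.

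Genes that write, erase or depend on 14-3-3 binding were read from 8 lists of 97 genes in all. Of these 10 had no value, 9 were under 1 FPKM in both libraries and 78 were compared. In the ECM1-deficient library 8 were higher and 1 lower by 2-fold or more, 11.5% in all, beside 17.0% of all genes. Their median difference of 0.54 lay beside 0.61 over all genes. Over all genes 14.8% were higher and 2.17% lower, the background for each list below. After scaling to the median gene, 2 stayed higher and 1 lower, where the share over all genes in either direction was 7.22%.

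Among 24 kinases that phosphorylate 14-3-3 binding sites, 2 were higher and 0 lower. Akt2, a survival and insulin-signalling kinase, was at 8.65 FPKM in the ECM1-deficient library and 2.10 FPKM in the ECM1-sufficient library, and was the one that stayed past 2-fold relative to the median gene. Sgk1, a related kinase that responds to glucocorticoids and growth factors, was at 77.7 FPKM in the ECM1-deficient library and 38.2 FPKM in the ECM1-sufficient library. The list's median difference was 0.64.

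Among 12 phosphatase subunits that oppose these kinases, 3 were higher and 0 lower, beside 14.8% higher over all genes. The list's median difference was 0.82, beside 0.61 over all genes. Ppp2cb, a catalytic subunit of protein phosphatase 2A, was at 33.2 FPKM in the ECM1-deficient library and 8.85 FPKM in the ECM1-sufficient library, and stayed past 2-fold relative to the median gene. Ppp2r5c, a regulatory subunit of the same enzyme, was at 15.8 FPKM in the ECM1-deficient library and 6.80 FPKM in the ECM1-sufficient library. Ppp1cc, a catalytic subunit of protein phosphatase 1, was at 35.1 FPKM in the ECM1-deficient library and 16.0 FPKM in the ECM1-sufficient library. On the log2 scale relative to the median gene, Ppp2r5c was at 0.39 and Ppp1cc at 0.33, both inside 2-fold.

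Of the docking partners, those in RAF and receptor signalling numbered 7, of which 1 was higher. This was Araf, a RAF kinase, at 4.07 FPKM in the ECM1-deficient library and 1.38 FPKM in the ECM1-sufficient library. Of 8 transcriptional regulators that 14-3-3 proteins hold in the cytoplasm, 1 was higher, the lysosomal and autophagy regulator Tfe3, at 3.62 FPKM in the ECM1-deficient library and 1.05 FPKM in the ECM1-sufficient library. Neither passed 2-fold relative to the median gene. The lists' median differences were 0.44 and 0.48.

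Of 8 partners in cell death and the cell cycle, 0 were higher or lower, with a median difference of 0.62. Bax, a pore-forming death protein, was at 95.7 FPKM in the ECM1-deficient library and 55.5 FPKM in the ECM1-sufficient library. Bad, whose phosphorylated form is held by 14-3-3 proteins away from mitochondria, was at 13.7 FPKM in the ECM1-deficient library and 10.7 FPKM in the ECM1-sufficient library. Of 7 partners in mTORC1 control, autophagy and metabolism, 0 were higher or lower, with a median difference of 0.43. Becn1, an initiator of autophagy, was at 16.9 FPKM in the ECM1-deficient library and 10.3 FPKM in the ECM1-sufficient library. Ddit4, a stress-induced inhibitor of mTORC1, was at 8.99 FPKM in the ECM1-deficient library and 4.97 FPKM in the ECM1-sufficient library.

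Of 8 partners in messenger RNA decay and the cytoskeleton, 1 was higher and 1 lower. Zfp36l2, which binds AU-rich messenger RNA and promotes its decay, was at 3.67 FPKM in the ECM1-deficient library and 27.6 FPKM in the ECM1-sufficient library, 7.52-fold lower. Its difference of -2.61 was the only one past 2-fold downward among the 78 partners. Itgb2, the beta chain of the leukocyte integrins, was at 213 FPKM in the ECM1-deficient library and 101 FPKM in the ECM1-sufficient library.

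The 4 partners in RNA sensing, known as such from human cells, were all within 2-fold, with a median difference of 0.15, the lowest of the 8 lists. Trim25, a ubiquitin ligase that acts on the sensor RIG-I, was at 6.24 FPKM in the ECM1-deficient library and 6.30 FPKM in the ECM1-sufficient library. Mavs, the adaptor of the pathway, was at 1.80 FPKM in the ECM1-deficient library and 1.79 FPKM in the ECM1-sufficient library. Ifih1, which encodes the sensor MDA5, a partner of the eta form, was at 1.70 FPKM in the ECM1-deficient library and 1.11 FPKM in the ECM1-sufficient library.

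**Figure D5:**
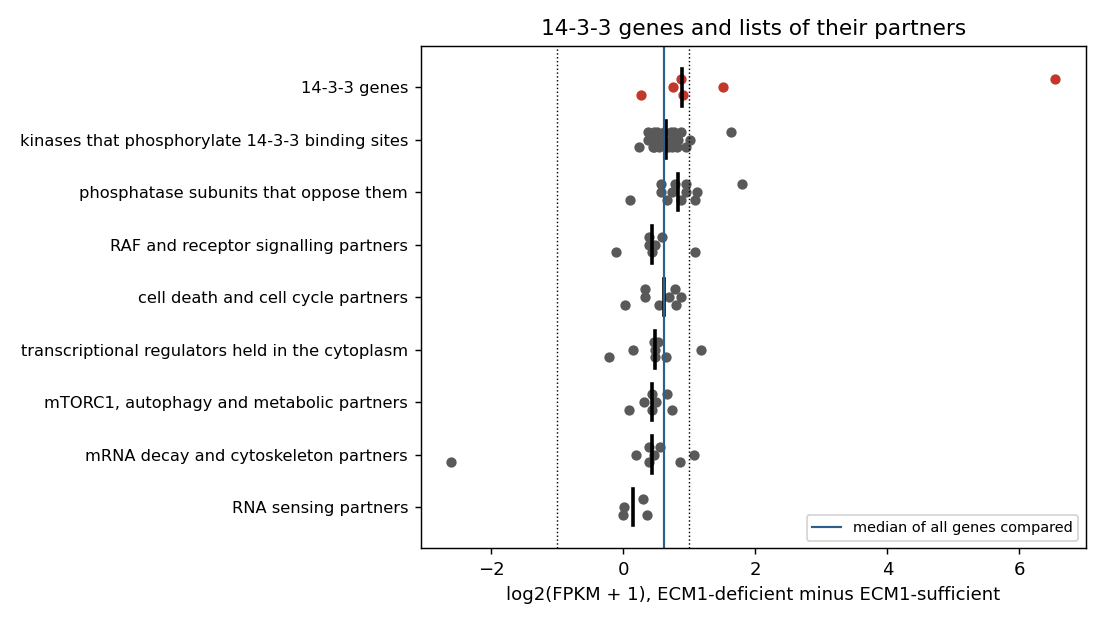
Each point is a gene, with the difference in log2(FPKM + 1), ECM1-deficient minus ECM1-sufficient, on the x axis; rows are the 14-3-3 genes (red) and the 8 partner lists, black bars are medians, the blue line is the median of all genes compared and dotted lines stand at 2-fold. Ywhah at 6.54 and Zfp36l2 at -2.61 lie farthest from the blue line at 0.61.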

How the data were processed

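Peritoneal macrophage RNA of 1 ECM1-deficient and 1 ECM1-sufficient sample was measured. Per the submitters' processing notes, HISAT2, StringTie 1.2.3 and the build mm9 were used, without further detail. The authors deposited linear FPKM per gene, log2(FPKM + 1), their log2 fold change (ECM1-sufficient minus ECM1-deficient), its linear fold, and p-values and q-values that are all 1. The deposited gene ontology table gives a fold ratio of enrichment with p-values and false discovery rates, per the file headers. Of 10403 identifiers, 10384 were in GENCODE M21 (GRCm38), all overlapping the gene of that identifier and 8060 with the same start and end, so coordinates are given as GRCm38. Of the members, 5 had the same start and end, and Ywhaz ends elsewhere in the annotation. The table lists genes whose higher value is at least 0.500 FPKM.

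Differences were log2(FPKM + 1) in the ECM1-deficient minus the ECM1-sufficient library, over the 9032 genes that reached 1 FPKM in either library, with rows of 1 repeated symbol summed. A gene was called at 2-fold in FPKM + 1. Values relative to the median gene divide ECM1-deficient and multiply ECM1-sufficient FPKM by the square root of the median ratio. With 1 library per genotype no test was made. Depth is unknown, so no counting interval is given. The members and all lists were chosen with earlier results of these data known. Named were all members, up to 4 genes past 2-fold per partner list (or the 2 most expressed), nearest neighbours and the 5 genes nearest in pattern. Predicted genes and clone names were left out of the search for genes nearest in pattern. Beyond these rules, Gm10094, Ifih1, Sertad3, Lyz2, Tpsb2, mt-Co1, Hist1h4d, Gm20390 and Lamtor1 were named after their values were seen. Coding sequences were aligned with MAFFT 7.526, and identity was counted over positions without gaps. The difference and the scaling were tried on simulated data with a uniform shift between libraries and changes added only to well-expressed genes. The simulation held no gene near 0 in one library and abundant in the other, so it does not bear on Ywhah. Alternatives were pseudocounts of 0.1 and 5, no minimum and a minimum of 5 FPKM, calls at 1.5-fold and at 4-fold, either rescaling, and taking only the highest value of a repeated symbol.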

Additional observations from a re-analysis of the deposited data

How the results depend on the processing

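The direction was the same for Ywhah, Ywhaq, Ywhab and Ywhaz under all pseudocounts, minimums and rescalings tried. With a pseudocount of 0.1 the log2 differences were 8.90 for Ywhah, 1.58 for Ywhaq, 0.94 for Ywhab, 0.89 for Ywhaz and 0.27 for Ywhag. With 5 they were 4.40 for Ywhah, 1.25 for Ywhaq, 0.75 for Ywhab, 0.80 for Ywhaz, 0.73 for Ywhae and 0.23 for Ywhag. After division by the median ratio they were 6.11 for Ywhah, 0.76 for Ywhaq, 0.15 for Ywhab, 0.10 for Ywhaz, -0.031 for Ywhae and -0.50 for Ywhag. With FPKM rescaled to equal sums they were 6.29 for Ywhah, 1.08 for Ywhaq, 0.47 for Ywhab, 0.43 for Ywhaz, 0.30 for Ywhae and -0.17 for Ywhag. No minimum, a minimum of 5 FPKM and the highest value of a repeated symbol left the 6 values as they were.

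The number of members higher was 1 after division by the median ratio, 5 at a threshold of 1.5-fold and 1 at 4-fold, in place of 2. The ratio of the family's summed FPKM was 1.33 after division by the median ratio and 1.67 with equal sums, and without Ywhah 1.01 and 1.28. Of all genes, 2944 were higher with a pseudocount of 0.1, and with a pseudocount of 5 the counts were 286 higher and 89 lower. They were 221 higher and 431 lower after division by the median ratio, a share of higher calls below that of the deposited values, 1337 higher and 196 lower. With equal sums 381 were higher and 296 lower, at 1.5-fold 4849 and 332, and at 4-fold 109 and 72. A minimum of 5 FPKM left 122 lower. Partner genes higher numbered 15 with a pseudocount of 0.1, 2 with a pseudocount of 5 and with both rescalings, 33 at 1.5-fold and 0 at 4-fold.

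No paired analysis was possible because each genotype had 1 library. A pseudocount moves weakly expressed genes most by its construction, and Ywhah is at 0.115 FPKM in the ECM1-sufficient library. The cause of the shift in the median gene was not tested. Without read counts, it is unknown how many reads lie behind that value.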
